A study of Mus musculus with 11 samples.

Results

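The genes described here are 10 genes through which the endothelium of the liver produces or receives Wnt and growth factor signals, or which mark endothelium near the central vein: *Wnt2*, *Wnt9b*, *Rspo3*, *Hgf*, *Dkk3*, *Kit*, *Cdh13*, *Wls*, *Fzd4* and *Lrp6*. They were chosen by name, with earlier results of these data known, and all 10 were found among the 29307 genes of the count table. All 10 also passed the filter on low counts and were tested with 12905 genes in all. In hepatic sinusoidal endothelial cells (ECs) of germ-free (GF) mice, 1 of the 10, the receptor gene *Fzd4*, was called higher than in conventionally raised (CONV-R) mice, by 1.83-fold, beside 4.80% of all tested genes. None of the 10 was called lower, and 6 had a Log2FC below 0. Of these, *Rspo3*, *Wnt9b* and *Kit* were called lower, beside 2.16% of tested genes, when GF replicate 2, the library with the highest GF level of each, was left out, and none was called when any other GF library was. Leaving out the highest GF value of a gene lowers its GF mean, so these calls are not separate support for a difference.

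Wnt proteins are secreted, lipid-modified ligands that bind Frizzled receptors and the co-receptors LRP5 and LRP6, which stabilizes β-catenin in the receiving cell. In the liver, ECs of the central vein and the adjoining sinusoids are a known source of WNT2, WNT9B and the Wnt amplifier R-spondin 3, and hepatocytes near the central vein respond with expression of genes such as *Glul*. Signals that ECs give to the cells of their organ in this way are called angiocrine.

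RNA was sequenced from ECs of 6 CONV-R mice and 5 GF mice, with 1 library per mouse, to ask how the absence of a gut microbiota changes the transcriptome of these cells. All animals were male C57BL/6J mice, matched for age. CONV-R mice carried a specific pathogen-free flora, and GF mice had no microbiota from birth. Liver ECs were enriched with magnetic beads for CD146 and then sorted for CD31, CD105 and CD146, so that ECs of the central and portal ends of the sinusoid were collected together, and the cDNA was amplified before sequencing since cell viability after sorting was low. The authors reported fewer sorted ECs and less extracted RNA from GF than from CONV-R livers. This difference in yield went with the group and cannot be told apart from colonization in these data. The libraries held between 7242717 and 16164588 counts, and the totals of the groups did not differ (two-sided exact permutation test, p = 0.403).

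Values are given as CPM, the counts of a gene relative to the scaled total of its library, and as log2 fold change (Log2FC) of GF relative to CONV-R mice. All 10 markers of sinusoidal endothelium (among them *Stab2*, *Clec4g* and *Lyve1*) were detected and none was called, and their summed level was 27500 to 35100 CPM in CONV-R and 27500 to 39600 CPM in GF mice. Markers of Kupffer cells, the resident macrophages of the liver, were also present, with a summed level of 86.0 to 222 CPM in CONV-R and 197 to 931 CPM in GF mice, and 7 of their 10 genes were called higher in GF mice. Markers of venous and continuous endothelium summed to 433 to 753 CPM in CONV-R and 639 to 880 CPM in GF mice, with *Cd34* and *Ly6c1* called higher among the 6 genes tested. Cholangiocyte markers summed to 0.137 to 8.96 CPM in CONV-R and 13.6 to 36.8 CPM in GF mice (1 of 2 tested genes, *Spp1*, called higher). None of 13 such values per mouse, the totals included, passed Benjamini-Hochberg adjustment of the exact permutation tests. The lowest adjusted p was 0.0563, for the cholangiocyte sum, whose groups did not overlap (permutation p = 0.00433 before adjustment). A larger difference would not have lowered that p, so the result does not show that the sums were alike.

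*Fzd4* lies on chromosome 7 of GRCm38 (chr7:89404355-89413134, plus strand) and *Wnt9b* on chromosome 11 (chr11:103727364-103749821, minus strand). The bases just upstream of both are shown because *Fzd4* is the gene that was called, and *Wnt9b*, for contrast, is the gene of the 10 with the lowest level. They were taken from the RefSeq promoters of GRCm38.p6, at chr7:89404116-89404354 on the plus strand and at chr11:103749822-103750071 on the minus strand, are written 5′ to 3′ and end at the last base before the annotated gene. Capitals mark the GC box (GGGCGG or its reverse complement) and the CCAAT box (CCAAT or its reverse complement), letters that many promoters without a TATA box hold.
Fzd4: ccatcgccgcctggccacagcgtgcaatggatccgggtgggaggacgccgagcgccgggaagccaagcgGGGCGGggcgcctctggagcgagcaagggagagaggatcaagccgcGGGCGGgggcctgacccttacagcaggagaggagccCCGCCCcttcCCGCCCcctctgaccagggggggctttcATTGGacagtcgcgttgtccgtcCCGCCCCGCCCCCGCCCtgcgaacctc
Wnt9b: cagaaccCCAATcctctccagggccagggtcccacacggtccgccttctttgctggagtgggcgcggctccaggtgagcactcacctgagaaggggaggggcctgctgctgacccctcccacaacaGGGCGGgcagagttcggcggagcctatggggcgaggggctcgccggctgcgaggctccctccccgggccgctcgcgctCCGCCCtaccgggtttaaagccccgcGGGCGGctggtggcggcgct
The *Fzd4* stretch held 7 GC boxes and 1 CCAAT box, and the *Wnt9b* stretch held 3 and 1. The 250-base windows of 6 members were at hand (*Wnt2*, *Wnt9b*, *Hgf*, *Kit*, *Wls* and *Fzd4*, but not *Rspo3*, *Dkk3*, *Cdh13* and *Lrp6*). A GC box was found in 5 of these 6 and in 33.0% of 32536 promoters of the same length, and a CCAAT box in 3 of 6 and in 33.8%. On either strand, GATAA, the core letters bound by GATA factors, was found in *Wnt2* alone of the 6 (22.5% of promoters), and neither CTTTGA, bound by TCF/LEF factors (13.9%), nor CCGGAA, bound by ETS factors (12.1%), was found in any of them. GC content was 72.8% in the *Fzd4* window and 72.0% in that of *Wnt9b*, against a median of 52.4% over all promoters.

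Levels of different genes were compared as CPM per kb of exon. In CONV-R mice *Kit* had the highest level of the 10 at 98.3 ± 19.1 CPM per kb (SD, n = 6), followed by *Rspo3* at 68.8 ± 26.6, *Fzd4* at 68.7 ± 5.15 and *Wnt2* at 65.1 ± 3.32, 3 genes whose means lay within their spread of each other. Next stood *Lrp6* at 36.4 ± 4.16 CPM per kb, then *Hgf* (23.7 ± 7.98), *Cdh13* (21.7 ± 1.53) and *Wls* (20.3 ± 1.95), which again could not be separated. *Dkk3* (13.2 ± 4.10) and *Wnt9b* (5.36 ± 1.23) had the lowest levels. In GF mice *Fzd4* stood first at 126 ± 21.2 CPM per kb (SD, n = 5), ahead of *Wnt2* (70.2 ± 18.5), *Kit* (66.7 ± 22.3) and *Rspo3* (39.0 ± 27.2). Of these, *Wnt2* and *Kit* lay within their spread of each other. The spread of *Rspo3*, with its highest library at 85.4, overlapped those of *Kit*, *Lrp6* (33.4 ± 2.74) and *Hgf* (32.8 ± 3.83). Its place was therefore not settled, nor was the order of *Lrp6* and *Hgf*. By their means, the order of the 6 other genes was the same as in CONV-R mice.

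**Figure D1:**
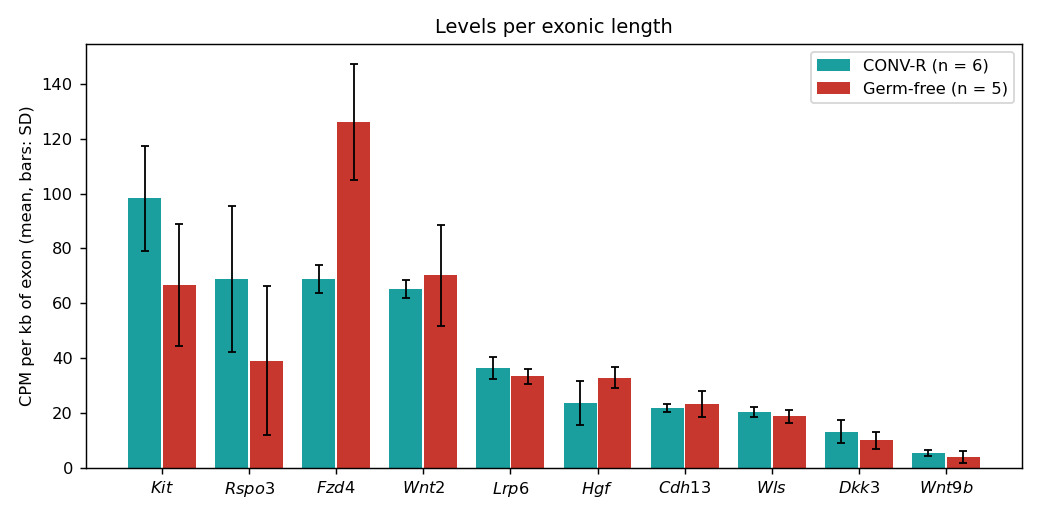
Mean level of each gene in CPM per kb of exon in CONV-R (n = 6) and GF (n = 5) mice, with bars for the SD. *Kit* stands highest in CONV-R mice (98.3) and *Fzd4* in GF mice (126), and *Wnt9b* is lowest in both (5.36 and 3.99).

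Of the receptor genes, *Fzd4* encodes a Frizzled receptor for Wnts and for Norrin, which acts in endothelium together with LRP5, LRP6 and TSPAN12. *Fzd4* was at 459, 506, 483, 425, 418 and 479 CPM in CONV-R replicates 1 to 6, and at 650, 910, 760, 880 and 1020 CPM in GF replicates 1, 2, 4, 5 and 6. Every GF library lay above every CONV-R library. This held for 3.22% of all tested genes, the opposite order held for 2.37%, and 5.59% did not overlap in either direction, as against 1 of the 10 genes. The mean was 461.7 ± 34.6 CPM (SD, n = 6) in CONV-R and 844 ± 142 CPM (n = 5) in GF mice. The Log2FC reached 0.87 (standard error 0.114, 95% interval 0.63 to 1.11), with a Benjamini-Hochberg adjusted p = 0.000177 in edgeR's quasi-likelihood test, which placed *Fzd4* at rank 50 of 12905 genes by p. It was the 1 member called of 10, beside 7.48% called among all tested genes, 4.80% higher and 2.67% lower. In these sorted cells, a change in the share of ECs that express a gene and a change in RNA per cell cannot be told apart. The change in *Fzd4* went along with the Kupffer, venous and cholangiocyte marker sums given above, whose medians were also higher in GF mice. Summed markers of lymphatic endothelium (7.996 to 13.7 CPM in CONV-R, 10.6 to 14.8 CPM in GF mice) and of haematopoietic progenitors and platelets (59.2 to 78.1 and 70.4 to 96.4 CPM) had higher medians in GF mice as well, and those of lymphocytes a lower one (5.22 to 14.1 and 3.97 to 6.95 CPM). Without GF replicate 6, the library with the highest Kupffer sum (931 CPM) and the highest *Fzd4* level, the Log2FC of *Fzd4* was 0.79 (edgeR adjusted p = 0.000839). The Kupffer sums of the other 4 GF libraries, 196.8 to 356.5 CPM, still lay mostly above those of CONV-R mice. The part of the marker sums in this result was not tested.

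*Lrp6* encodes the co-receptor that pairs with Frizzled proteins. It lay between 413 and 558 CPM in CONV-R mice (median 500 CPM) and was 414, 473, 433, 451 and 511 CPM in GF replicates 1, 2, 4, 5 and 6, so that the groups overlapped. The Log2FC was −0.12 (standard error 0.104, 95% interval -0.34 to 0.09, edgeR adjusted p = 0.514). The number of *Fzd4* counts per *Lrp6* count within a library, which does not depend on library size, was 0.763 to 1.17 in CONV-R mice (median 0.918). In GF mice it was 1.57 to 1.99 (median 1.93), without overlap. The ratio is of counts, not of levels per length, and serves only to compare libraries. How often ratios of other gene pairs fail to overlap was not measured, here or for the ratios below.

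**Figure D2:**
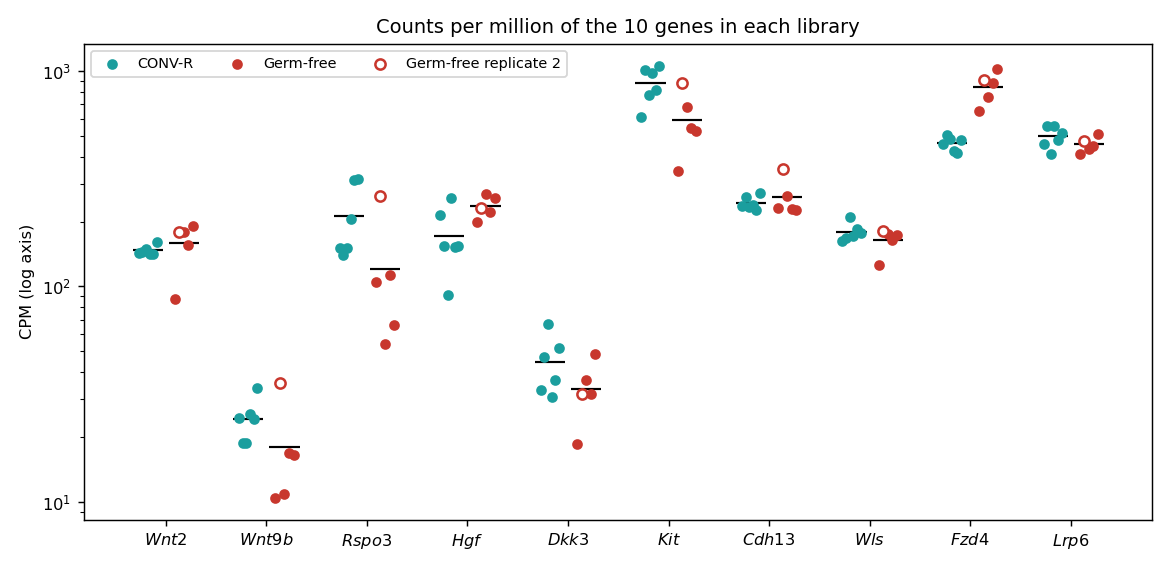
CPM of each of the 10 genes in each library on a log axis, for 6 CONV-R and 5 GF mice, with a line at each group mean and an open circle for GF replicate 2. The groups separate for *Fzd4* (418 to 506 against 650 to 1020 CPM), and the open circle lies apart from the other GF libraries for *Wnt9b* (35.5 CPM) and *Rspo3* (264 CPM).

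The ligand genes *Wnt2* and *Wnt9b* did not pass the test. *Wnt2*, the more abundant ligand, was almost uniform in CONV-R mice at 141 to 161 CPM (median 144 CPM) and was at 87.3, 179, 178, 156 and 191 CPM in GF replicates 1, 2, 4, 5 and 6. In 3 GF libraries it stood above all CONV-R libraries and in replicate 1 below them, and the coefficient of variation was 5.28% in CONV-R and 26.4% in GF mice, a difference in spread that was not tested. The mean of 147 ± 7.74 CPM (SD, n = 6) and that of 158 ± 41.7 CPM (n = 5) gave a Log2FC of 0.11 (standard error 0.155, 95% interval -0.22 to 0.44, edgeR adjusted p = 0.727). With each library left out in turn the Log2FC ranged from 0.03 to 0.26, and no such fit called *Wnt2* (edgeR adjusted p at least 0.148).

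*Wnt9b* was the weakest of the 10 genes, with 114 to 436 counts in a library. It was at 18.7 to 33.8 CPM in CONV-R mice (median 24.3 CPM) and at 10.4, 35.5, 10.9, 16.9 and 16.5 CPM in GF replicates 1, 2, 4, 5 and 6. Replicate 2 had the highest level of all 11 libraries, whereas the other 4 GF libraries lay below all CONV-R libraries. With all libraries the Log2FC was −0.43 (standard error 0.275, edgeR adjusted p = 0.374). Without GF replicate 2 it was −0.83 (standard error 0.215, 95% interval -1.29 to -0.38), a level 1.78-fold higher in CONV-R mice, and *Wnt9b* was called (edgeR adjusted p = 0.0321). In that fit 3 of the 10 genes were called lower and 1 higher, beside 2.16% and 3.79% of 13047 tested genes. The library left out had the highest GF level of those 3 genes, so the comparison with 2.16% is not a like comparison.

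R-spondin 3, the product of *Rspo3*, amplifies Wnt signals by binding LGR receptors and removing the ligases ZNRF3 and RNF43 from the cell surface. *Rspo3* was at 151, 140, 150, 206, 313 and 316 CPM in CONV-R replicates 1 to 6 and at 105, 264, 54.0, 113 and 66.1 CPM in GF replicates 1, 2, 4, 5 and 6. Of the GF libraries, 4 lay below all CONV-R libraries, and replicate 2 lay between CONV-R libraries. The mean was 213 ± 82.4 CPM (SD, n = 6) in CONV-R and 120 ± 84.0 CPM (n = 5) in GF mice, with a Log2FC of −0.82 (standard error 0.340, 95% interval -1.54 to -0.11) that did not pass the test (edgeR adjusted p = 0.156). Without GF replicate 2 the Log2FC was −1.33 (standard error 0.273, 95% interval -1.91 to -0.75, edgeR adjusted p = 0.00917), a level 2.52-fold higher in CONV-R mice. When genes with low counts were kept in the fit with all libraries, *Rspo3* and *Kit* were called lower (edgeR adjusted p = 0.0104 and 0.0120), which made 2 of the 10 lower and 1 higher, beside 1.61% and 2.86% of 25329 genes. The spread within groups was the widest of the 10 genes, with a coefficient of variation of 38.7% in CONV-R and 69.8% in GF mice. An antisense gene, *Gm48159*, shares 13.1% of the exonic bases of *Rspo3*. The strand setting of the counting was not given in the sources used here, so reads of the antisense gene could be included.

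The counts of *Rspo3* per count of *Wnt2* ranged from 0.971 to 2.21 in CONV-R mice (median 1.26) and from 0.303 to 1.47 in GF mice (median 0.724). The counts of *Wnt9b* per count of *Wnt2* ranged from 0.126 to 0.210 in CONV-R and from 0.0609 to 0.198 in GF mice. Both ratios overlapped between the groups, and in both the GF minimum lay below all CONV-R libraries.

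*Wls* encodes the carrier that brings Wnt proteins to the cell surface. It lay between 162 and 210 CPM in CONV-R mice (median 174 CPM) and was 126, 181, 175, 164 and 174 CPM in GF replicates 1, 2, 4, 5 and 6. The Log2FC was −0.13 (standard error 0.113, 95% interval -0.36 to 0.11, edgeR adjusted p = 0.548). Per count of *Wls*, *Fzd4* had 2.27 to 3.02 counts in CONV-R and 4.34 to 5.87 in GF mice, again without overlap.

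**Figure D3:**
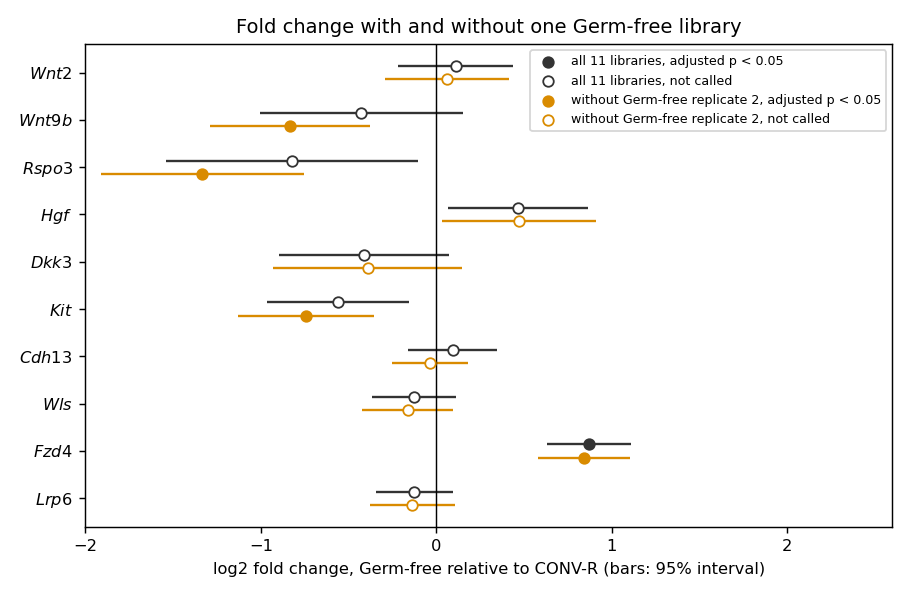
Log2FC of GF relative to CONV-R mice for the 10 genes with 95% intervals, from all 11 libraries (dark) and without GF replicate 2 (orange), filled where the adjusted p is under 0.05. *Fzd4* is filled in both (0.87 and 0.84), and *Wnt9b*, *Rspo3* and *Kit* are filled only without replicate 2 (-0.83, -1.33 and -0.74), the GF library where each of them was highest.

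*Kit* and *Cdh13* are expressed more strongly in pericentral than in periportal endothelium. *Kit* encodes the receptor for stem cell factor. It was at 615, 1010, 772, 981, 818 and 1060 CPM in CONV-R replicates 1 to 6 and at 345, 878, 680, 546 and 524 CPM in GF replicates 1, 2, 4, 5 and 6. In 3 GF libraries it lay below all CONV-R libraries, and replicates 2 and 4 lay within the CONV-R range. The means of 877 ± 171 CPM (SD, n = 6) and 595 ± 198 CPM (n = 5) gave a Log2FC of −0.56 (standard error 0.193, 95% interval -0.97 to -0.15) and did not pass the test (edgeR adjusted p = 0.0882). In DESeq2 the adjusted p was 0.0505. *Kit* was called lower when genes with low counts were kept (Log2FC −0.59, edgeR adjusted p = 0.0120), without GF replicate 2 (Log2FC −0.74, edgeR adjusted p = 0.0255), and without CONV-R replicate 1 (Log2FC −0.65, edgeR adjusted p = 0.0486), the CONV-R library with the lowest level, in a fit that called 1 of the 10 lower and 1 higher, beside 2.75% and 5.20% of 12743 genes. *Kit* also marks mast cells and haematopoietic progenitors. The 6 mast cell markers together reached at most 1.32 CPM in any library, with *Mcpt4* at 0 in all of them. The 8 markers of haematopoietic progenitors and platelets summed to 59.2 to 78.1 CPM in CONV-R and 70.4 to 96.4 CPM in GF mice, with *Cd34*, which endothelium also expresses, the 1 called higher of 5 tested. Their part in the *Kit* levels was not tested.

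*Cdh13* encodes T-cadherin, an adhesion molecule anchored to the membrane by a lipid. It lay between 227 and 271 CPM in CONV-R mice (median 236 CPM) and was 231, 351, 264, 229 and 226 CPM in GF replicates 1, 2, 4, 5 and 6. Except for replicate 2, the GF libraries lay at CONV-R levels. The Log2FC was 0.09 (standard error 0.12, 95% interval -0.16 to 0.35, edgeR adjusted p = 0.699), and −0.04 without GF replicate 2. Between the pericentral genes, there were 2.62 to 4.13 *Kit* counts per *Cdh13* count in CONV-R mice (median 3.76) and 1.49 to 2.58 in GF mice (median 2.39). The ratio did not overlap between the groups, by a narrow margin (2.62 against 2.58), and was not tested.

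*Hgf* encodes hepatocyte growth factor, the ligand of the receptor MET on hepatocytes, which ECs and stellate cells release. It was at 214, 154, 91.6, 257, 153 and 154 CPM in CONV-R replicates 1 to 6 and at 200, 231, 269, 221 and 256 CPM in GF replicates 1, 2, 4, 5 and 6. GF libraries were the more uniform, and 2 CONV-R libraries reached their range. The mean was 171 ± 57.3 CPM (SD, n = 6) in CONV-R and 235 ± 27.3 CPM (n = 5) in GF mice, with a Log2FC of 0.46 (standard error 0.189, 95% interval 0.07 to 0.86) that did not pass the test (edgeR adjusted p = 0.150). Stellate cell markers summed to 57.5 to 96.0 CPM in CONV-R and 68.0 to 91.4 CPM in GF mice. None of the 4 tested among these 10 genes was called by edgeR. Most of the sum came from *Ecm1* (62.4 CPM in CONV-R and 60.5 CPM in GF mice) and *Rgs5* (11.1 and 9.79 CPM). *Lrat*, which encodes an enzyme of retinoid storage, was at 4.92 and 1.89 CPM, and *Col1a1* (0.0357 and 0.376 CPM) and *Pdgfrb* (0.0522 and 0.500 CPM) were near 0. A short unclassified gene on the same strand, *Gm43489*, shares 6.74% of the exonic bases of *Hgf*.

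*Dkk3* belongs to the Dickkopf family of secreted Wnt modulators, of which it is the most divergent member. It lay between 30.7 and 67.0 CPM in CONV-R mice (median 41.9 CPM) and was 18.6, 31.5, 36.9, 31.6 and 48.7 CPM in GF replicates 1, 2, 4, 5 and 6. The groups overlapped, with a Log2FC of −0.41 (standard error 0.230, 95% interval -0.90 to 0.07, edgeR adjusted p = 0.300).

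Over the 10 genes, the Log2FC was above 0 for 4 and the median was −0.13, next to −0.01 for all tested genes. Single GF libraries lay at the edge of the group for several genes. GF replicate 1 had the lowest level of the GF libraries for 8 of the 10 genes (*Wnt2*, *Wnt9b*, *Hgf*, *Dkk3*, *Kit*, *Wls*, *Fzd4* and *Lrp6*), and GF replicate 2 had the highest for 5 (*Wnt9b*, *Rspo3*, *Kit*, *Cdh13* and *Wls*). GF replicate 2 also had the most genes with 1 to 5 counts, 7118, where the other GF libraries had 2729 to 3758. With all libraries 0 of the 10 genes were called lower, and without GF replicate 2 the 3 genes *Wnt9b*, *Rspo3* and *Kit* were, while *Fzd4* kept its call (Log2FC 0.84, edgeR adjusted p = 0.000832).

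**Figure D4:**
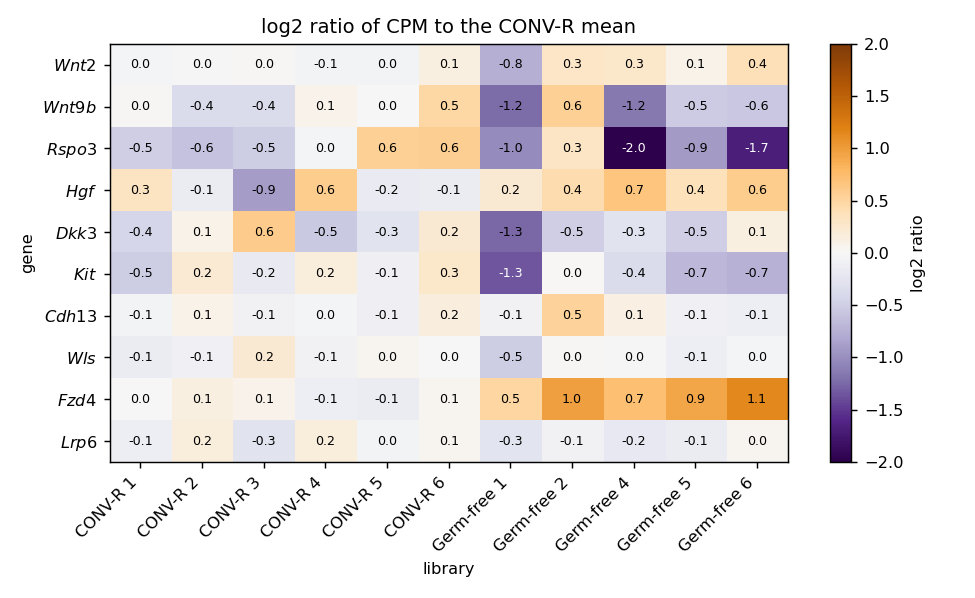
Log2 ratio of CPM to the CONV-R mean for each gene (rows) in each library (columns), from -2 (purple) to 2 (orange). *Fzd4* is above 0 in all 5 GF libraries (0.49 to 1.14), *Rspo3* is below 0 in GF replicates 1, 4, 5 and 6 and at 0.31 in replicate 2.

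The pathway around the 10 genes was examined next. Over 6 lists of Wnt ligands, secretion factors and agonists, receptors, inhibitors, intracellular components and target genes, 42 of 92 genes were tested, 1 was called higher (*Fzd4*) and 0 were called lower by edgeR, beside 4.80% and 2.67% of all tested genes. The 35 tested genes that are not among the 10 had a median Log2FC of 0.06. Of 19 ligand genes 5 were tested and 0 called, and the ligands other than *Wnt2* and *Wnt9b* were low, with *Wnt2b* the highest of them at 6.21 ± 0.979 CPM (SD, n = 6) in CONV-R and 5.43 ± 2.36 CPM (n = 5) in GF mice. Of 7 secretion and agonist genes 3 were tested (*Wls*, *Rspo3* and *Porcn*) and 0 called.

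Of 24 receptor genes 18 were listed and 11 tested, with 1 called (*Fzd4*) and a median Log2FC of 0.13. The other 6, *Fzd1*, *Fzd2*, *Fzd7*, *Fzd8*, *Fzd9* and *Fzd10*, are genes with 1 exon, a class of which 1 of 1331 protein-coding genes was among the listed genes. They were not analysed here, so the rank of *Fzd4* within the Frizzled family was not measured. Of 18 inhibitor genes 3 were tested and 0 called by edgeR, whereas limma on the deposited normalized values called *Dkk2* higher (Log2FC 1.11, adjusted p = 0.0301), a gene at 0.403 CPM in CONV-R and 1.204 CPM in GF mice. *Dkk2* had 90 counts over all libraries and was near 0 in CONV-R mice, so this call does not support a count over the list. The inhibitor with the highest CPM, not scaled for length, was *Kremen1*, a receptor for Dickkopf proteins, at 62.8 ± 13.7 CPM in CONV-R and 68.3 ± 7.58 CPM in GF mice. Of 17 intracellular components 15 were tested and 0 called, with a median Log2FC of −0.01. By CPM, not scaled for length, the highest was *Apc*, a scaffold of the complex that degrades β-catenin. *Apc* was at 892 ± 55.0 CPM in CONV-R and 869 ± 92.9 CPM in GF mice (Log2FC −0.04, edgeR adjusted p = 0.864), with a sign that turned without GF replicate 2 (0.0019). Of 14 target genes, 7 were tested and 0 called by edgeR, with a median Log2FC of −0.22. *Nkd2*, a feedback inhibitor that acts on Dishevelled, came nearest at 16.4 ± 3.35 CPM in CONV-R and 9.62 ± 3.60 CPM in GF mice (Log2FC −0.78, edgeR adjusted p = 0.0535) and was called lower by DESeq2 (adjusted p = 0.0186) and limma voom (adjusted p = 0.0303). *Axin2*, a general target of β-catenin, was at 3.75 ± 1.71 CPM and 2.07 ± 1.71 CPM (Log2FC −0.84, edgeR adjusted p = 0.340). The target with the highest CPM, *Ccnd1*, which encodes cyclin D1, had a Log2FC of −0.22 (edgeR adjusted p = 0.489). Of 9 genes of the HGF and KIT axis, 5 were tested and 0 called by edgeR. DESeq2, which kept more genes of low count, called *Met* (0.301 CPM in CONV-R and 2.30 CPM in GF mice, adjusted p = 0.000448) and *Spint1* (0.101 and 0.991 CPM, adjusted p = 0.0273) higher. Both were near 0 in CONV-R mice and had most of their counts in GF libraries, so these calls do not support a count over the list. Stem cell factor, the ligand of KIT, is encoded by *Kitl*, whose level was 137 ± 33.5 CPM in CONV-R and 178 ± 24.7 CPM in GF mice (Log2FC 0.37, edgeR adjusted p = 0.176).

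**Figure D5:**
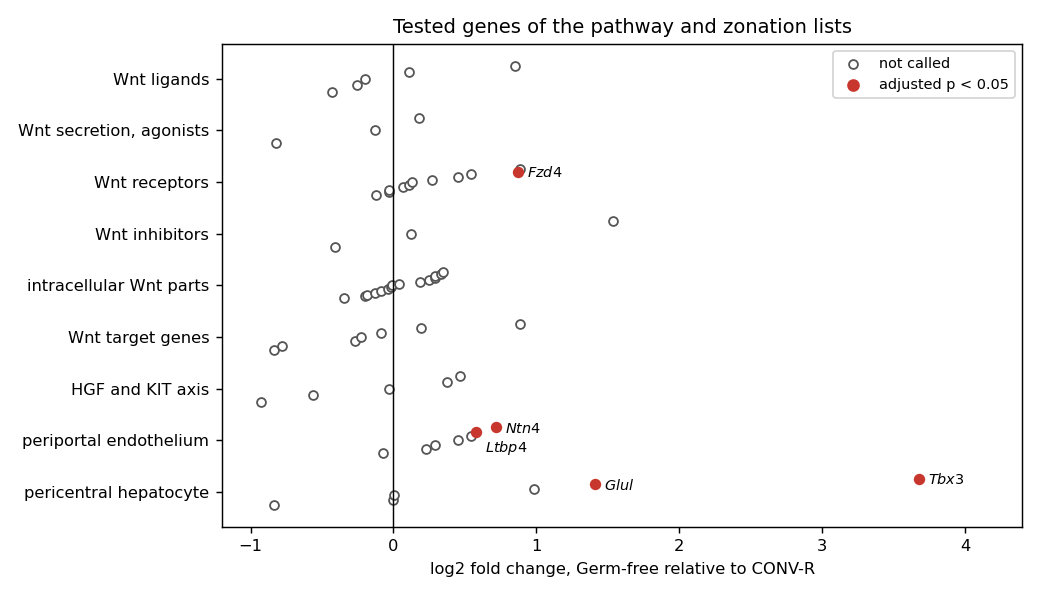
Log2FC of every tested gene in 6 Wnt lists, the HGF and KIT axis, and lists of periportal endothelium and pericentral hepatocytes, with genes called by edgeR filled and named. *Fzd4* (0.87) is the only filled gene of the Wnt lists, and *Ntn4*, *Ltbp4*, *Glul* and *Tbx3* are filled in the last 2 lists.

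For comparison with the pericentral genes *Kit* and *Cdh13*, 7 genes known from the periportal side of the endothelium were examined, all of which were tested. The Log2FC was above 0 for 6 of the 7, with a median of 0.45 (−0.01 over all tested genes), and 2 were called higher in GF mice, where 4.80% of all tested genes were. *Ntn4*, which encodes the secreted guidance protein netrin 4, rose from 354 ± 59.0 CPM (SD, n = 6) to 581 ± 189 CPM (n = 5), with every GF library above every CONV-R library (Log2FC 0.71, edgeR adjusted p = 0.0157). It was not called by limma on the deposited normalized values (adjusted p = 0.0584). *Ltbp4*, which encodes a binding protein of latent TGF-β, rose from 765 ± 114 CPM to 1141 ± 319 CPM (Log2FC 0.58, edgeR adjusted p = 0.0353). Its call was lost without any 1 of 7 libraries (CONV-R replicates 2, 4, 5 and 6 and GF replicates 1, 4 and 6), with edgeR adjusted p of up to 0.103, and by limma on the deposited normalized values (adjusted p = 0.107). Without GF replicate 1 the Log2FC was nearer 0 for *Ntn4* (0.49, still called), *Ltbp4* (0.43), *Efnb2* (0.54 with all libraries and 0.28 without it) and *Dll4* (0.23 and 0.0024). The venous and continuous endothelial markers, given above, had a median Log2FC of 0.57, and their part in the periportal values was not tested. The gene of the list with the highest CPM, *Adam23*, a membrane protein of the ADAM family, was at 1693 ± 266 and 2069 ± 399 CPM (Log2FC 0.29, edgeR adjusted p = 0.220).

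Of 10 genes that mark pericentral hepatocytes, 6 were tested and 2 were called higher in GF mice, where 4.80% of all tested genes were. *Glul*, which encodes glutamine synthetase and is also expressed by ECs, rose from 108 ± 24.9 CPM to 286 ± 83.4 CPM (Log2FC 1.41, edgeR adjusted p = 0.000178). *Tbx3*, which encodes a transcription factor, was low, at 0.492 ± 0.307 CPM in CONV-R and 6.49 ± 4.09 CPM in GF mice (Log2FC 3.68, edgeR adjusted p = 0.000847). It passed the filter on low counts only through the GF libraries, so its call does not support a count over the list, and without it *Glul* was the 1 gene called. General hepatocyte markers, albumin among them, summed to 27.5 to 62.3 CPM in CONV-R and 31.6 to 73.3 CPM in GF mice, and 0 of the 8 tested were called. *Cyp2e1*, a cytochrome of pericentral hepatocytes, was at 3.14 ± 2.00 and 3.02 ± 4.27 CPM (Log2FC 0.01, edgeR adjusted p = 0.997).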

How the data were processed

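Libraries were grouped as CONV-R (6 mice) or GF (5 mice) by the treatment label, and each held RNA of sorted liver ECs. The authors deposited raw counts per gene: reads were trimmed with Trim Galore 0.4.4, mapped to GRCm38 with STAR 2.5.2b and counted with featureCounts 1.5.2. The annotation release and strand setting were not given in the sources used here. The authors removed 1 further GF library with few mapped reads, and the deposited normalized values, on a log2 scale, served as an alternative only. In R 4.3.3, edgeR 4.0.16 was used with filterByExpr, TMM scaling, no covariate, the quasi-likelihood test and Benjamini-Hochberg adjustment over 12905 genes (threshold 0.05). DESeq2 1.42.0 and voom of limma 3.58.1 were alternatives. Between 7242717 and 16164588 counts per library limit low genes, and the 5 and 6 mice limit the rest. Replicates within a group differed beyond sampling noise. Values per mouse were compared by two-sided permutation over 462 splits, where a sum without overlap between the groups had p = 0.00433. Positions and exonic lengths came from GENCODE on GRCm38, sequences from RefSeq.

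The 10 genes and all lists were chosen with earlier results of these data known. Named genes are the 10, every called gene and the gene with the highest mean CPM of each pathway list, marker genes needed to say whether a cell type was detected, and the 3 genes most alike to *Wnt2*, *Wnt9b* and *Rspo3*. *Nkd2*, *Axin2*, *Kitl*, *Wnt2b*, *Porcn*, *Efnb2*, *Dll4*, *Cyp2e1*, *Dkk2*, *Met*, *Spint1*, *Adgra2* and *Gsk3a* were added after their values were seen.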

Additional observations from a re-analysis of the deposited data

Results flagged for a closer look

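Among 48 groups of values per library, 4 held a library whose distance from the nearest other, relative to the range of its group, exceeded the 95% limit of Dixon's criterion. Chance alone gives about 1 in 20 such groups. *Wnt9b* was at 35.5 CPM in GF replicate 2 and at 10.4 to 16.9 CPM in the other GF libraries. *Rspo3* was at 264 CPM in GF replicate 2 and at 54.0 to 113 CPM in the other GF libraries. GF replicate 2 also had 7118 genes with 1 to 5 counts, compared with 2729 to 3758 in the other GF libraries. The Kupffer cell markers summed to 930.7 CPM in GF replicate 6 and to 196.8 to 356.5 CPM in the other GF libraries. Whether the many genes with few counts in GF replicate 2 have a part in its *Wnt9b* and *Rspo3* levels was not tested.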

How the results depend on the processing

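Of the fold changes of the 10 genes under the alternatives, 192 kept their direction and their side of the threshold, 7 newly passed it and 1 changed sign. *Fzd4* was called in all of them, with a Log2FC of 0.79 to 0.95 when each library was left out in turn (adjusted p at most 0.000965) and 0.74 to 0.87 otherwise (at most 0.00254). When each library was left out, *Cdh13* ranged from -0.038 (without GF replicate 2) to 0.14, *Apc* from -0.10 to 0.0019 (without the same library), *Wnt9b* from −0.83 to −0.28, *Rspo3* from −1.33 to −0.64 and *Kit* from −0.74 to −0.42, with 0 to 3 of the 10 genes called lower. Over all genes these fits called 413 to 779 higher and 206 to 481 lower. In the lists they called 0 to 1 lower among Wnt ligands, secretion factors and agonists, target genes, and the HGF and KIT axis, 0 to 1 higher in that axis and among intracellular components (*Gsk3a*), 1 to 2 higher among receptors (*Adgra2* added) and 1 to 2 higher in the periportal list. DESeq2 called 929 of 15540 genes higher and 598 lower, 1 target gene lower (*Nkd2*, also 1 with voom) and 2 of the HGF and KIT axis higher (*Met* and *Spint1*). Without a filter, *Rspo3* (−0.86, adjusted p = 0.0104) and *Kit* (−0.59, adjusted p = 0.0120) were called, hence 2 of the 10 lower, 1 agonist, 1 target gene and 1 of the axis lower, and 1 of the axis higher (*Met*), over 25329 tested genes. Requiring 10 counts in every library, or drawing counts down to the lowest total, left out *Tbx3*, and 1 pericentral hepatocyte gene stayed called. *Ntn4* and *Ltbp4* were not called in the deposited normalized values by limma (adjusted p = 0.0584 and 0.107), and *Dkk2*, a gene near 0 in CONV-R mice, was called higher (1.11, adjusted p = 0.0301). With replicate number as a block on 10 libraries, *Kit* was called (−0.64, adjusted p = 0.00413), hence 1 of the 10 lower and 1 of the axis lower, beside 688 of 12807 genes higher and 413 lower. The numbers did not pair the mice: same-numbered libraries deviated together with correlations of -0.01 to 0.20, and 2 of 5 correlated best with their own number. The same 10 libraries without the block (that is, without CONV-R replicate 3) gave *Kit* −0.60 (adjusted p = 0.0811). The cause of these shifts was not tested. Adjusted p-values here are from edgeR's quasi-likelihood test unless another tool is named.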

Other observations

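The genes whose levels most resembled those of the Wnt ligands and of *Rspo3* were looked up among all tested genes, by Pearson's r between deviations of log2 CPM from the group means over the 11 libraries. The likeness is a description: the genes were the best of 12905, and they share libraries and depth. For *Wnt2* these were *Gtpbp4* (0.930), *Baz1a* (0.906) and *Dennd2c* (0.905), and without GF replicate 1, the library with the lowest *Wnt2* level, these values were 0.604, 0.442 and 0.456. For *Rspo3* they were *Rdx* (0.951), *Smim17* (0.943) and *1810062O18Rik* (0.939). For *Wnt9b* they were *Matk* (0.954), *Rnf150* (0.913) and *Kcnj16* (0.893), 3 genes with mean levels of 1.21 to 2.73 CPM. For *Rspo3* and *Wnt9b* the values without GF replicate 2 were between 0.80 and 0.956. Among the 10 genes themselves, *Wnt9b* and *Rspo3* had an r of 0.792, which was 0.529 without GF replicate 2, and *Wnt2* and *Wls* one of 0.821, which was 0.337 without GF replicate 1. The values without 1 library were added after seeing the data.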
